A study of Mus musculus with 182 samples.

Results

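The 10 genes followed here encode proteins that store, silence or destroy the messenger RNA (mRNA) that an egg hands to its embryo: Zar1, Zar1l, Ybx2, Cpeb1, Pum2, Btg4, Cnot6l, Cnot7, Pan2 and Dcp1a. They were chosen by name, with earlier results of these data known, and they are 10 of the 24499 genes counted in 182 single mouse cells. Wild-type cells (genotype label Xist wt/wt) were 7 oocytes, 4 of the strain C57BL/6J (B6) and 3 of Cast/EiJ (Cast), and blastomeres of embryos with 2 to 64 cells (2C to 64C). Embryos were hybrids of B6 and Cast from natural matings, without culture. The cross BC is B6 mother by Cast father, and CB is the reverse. Wild-type blastomeres of both crosses and both sexes numbered 6 (2C), 10 (4C), 29 (8C), 15 (16C), 26 (32C) and 20 (64C). A further 69 cells carried the label Xist wt/ko, a deletion of the Xist allele from the father, in CB alone: 60 females (8C 7, 16C 12, 32C 16, 64C 25) and 9 males (32C 4, 64C 5). Xist is the RNA that silences an X chromosome, and males receive no X from their father. The labels name no embryo and do not give the maturity of the oocytes. Cells sharing stage, cross, sex and genotype were therefore summed into 31 groups, 25 of them wild type, and a group was 1 sample. Of the wild-type groups, 4 hold 1 cell each. Levels are given as CPM, read counts scaled to a common library total, and stage levels as the mean over groups ± SD.

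A growing mouse oocyte makes a large store of mRNA, stops transcription before ovulation, and then lives on that store until the embryonic genome is switched on, in the mouse mainly at the 2-cell stage. Stored mRNAs are held by RNA-binding proteins, many with short poly(A) tails. During meiotic maturation and after fertilization they lose their tails to deadenylases, then their cap, and are degraded. Zar1 and its relative Zar1l bind the 3′ ends of maternal mRNAs. Ybx2 (also MSY2) is a germ-cell Y-box protein that stabilizes them, Cpeb1 controls their cytoplasmic polyadenylation, and Pum2 is a Pumilio-type repressor. Btg4 is the adaptor that brings the CCR4-NOT deadenylase to maternal mRNAs. Cnot6l and Cnot7 are catalytic subunits of CCR4-NOT, Pan2 is the catalytic subunit of the PAN2-PAN3 deadenylase, and Dcp1a is a cofactor of the decapping enzyme.

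The genes lie on autosomes (RefSeq GRCm38.p6, the patched form of the build mm10 that the submitters' notes name). Zar1 (chr5:72577113-72581361), Zar1l (chr5:150507055-150518194) and Cnot6l (chr5:96070333-96164198) share chromosome 5. Cpeb1 is at chr7:81347026-81458001, Cnot7 at chr8:40492538-40515847, Btg4 at chr9:51102147-51119924 and Pan2 at chr10:128303333-128321358. Ybx2 is at chr11:69935805-69941604, Pum2 at chr12:8674092-8752583 and Dcp1a at chr14:30479486-30527056. RefSeq promoter windows of 300 bases, 250 before and 50 after a start site, matched 9 of the 10 genes. They were searched for the E-box CANNTG, the letters read by basic helix-loop-helix factors such as the oocyte factor Figla; the motif is the same on both strands. It occurs in 8 of 14 windows of these genes, in 7 of the 9 genes, and in 72.3% of all 32851 windows, so its presence sets no gene apart. The stretches below are shown for the 4 genes whose RNA was lowest at 64C, each 30 bases, 5′ to 3′, with the E-box in capitals. They lie at chr5:72581092-72581121 (minus strand), chr9:51115919-51115948 (plus), chr5:150518145-150518174 (minus) and chr7:81454717-81454746 (minus). Each is from the first listed window of its gene, and all 4 lie within the gene spans given above. In the same order, the E-box centres are at −22, −67, 0 and 27 bases from the start site of that window.
Zar1: cagcgtggagggCAGCTGggctgcgctgat
Btg4: tctagtggatagCACCTGtgtggggtgagc
Zar1l: cccccctcccctCAAATGgagcgtcttttc
Cpeb1: aaaaatagtgccCACGTGtgtgcgcgtccc

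Total counts ran from 2538818 to 40049961 per cell, and from 2538818 to 4232009 in oocytes. Oocyte markers (7 genes, among them Gdf9, Bmp15 and Zp3) summed to between 15892 and 29695 CPM in the oocyte groups and to between 1.09 and 21.7 CPM at 64C. Markers of cumulus and granulosa cells (10 genes) summed to between 37.9 and 52.7 CPM in oocytes. Of these markers, 3 were over 1 CPM in each oocyte group, while Foxl2, Amh, Inha and Ptx3 were at 0 in both. The 5 activation genes of the 2-cell stage summed to at most 0.68 CPM in oocytes and to at least 225 CPM at 2C. Trophectoderm markers (5 genes) reached between 182 and 9037 CPM at 64C, inner-cell markers (4 genes) between 472 and 1475 CPM, and primitive endoderm markers (4 genes) between 235 and 563 CPM. The targeted gene Xist was at 35.5 to 795 CPM in wild-type female groups from 8C on. It was at or below 8.51 CPM in 58 of the 60 deletion females, and 2 deletion cells at 8C held 21.2 and 80.6 CPM against their label. Only polyadenylated RNA was captured, so a shorter tail and less RNA cannot be told apart. CPM is relative to the cell's total, so less RNA per cell is not seen.

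In oocytes these genes stood between the 27th and the 4778th place of all genes measured. On the signal that the authors deposited (named RPRT, its scaling not spelled out), Btg4 stood 27th of 20711 genes with a mean of 3595, Zar1 35th with 2792 and Cnot7 97th with 1276. Pan2 followed at 305th and Dcp1a at 340th, then Cnot6l at 1207th, Cpeb1 at 1375th, Pum2 at 1714th, Ybx2 at 2880th and Zar1l at 4778th. Neighbours in this order overlapped between oocytes: the 7 Btg4 values ran from 1910 to 6588 and the 7 Zar1 values from 1939 to 4292. Cnot7 (984 to 1581) lay below both of them and above Pan2 (338 to 728). By 4C the order had changed, with Pum2 first at a mean RPRT of 114 and Btg4 next at 43.7. Pum2 stayed first of the 10 until 32C, and at 64C Ybx2 was first at 51.7 and Pum2 next at 17.

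**Figure D1:**
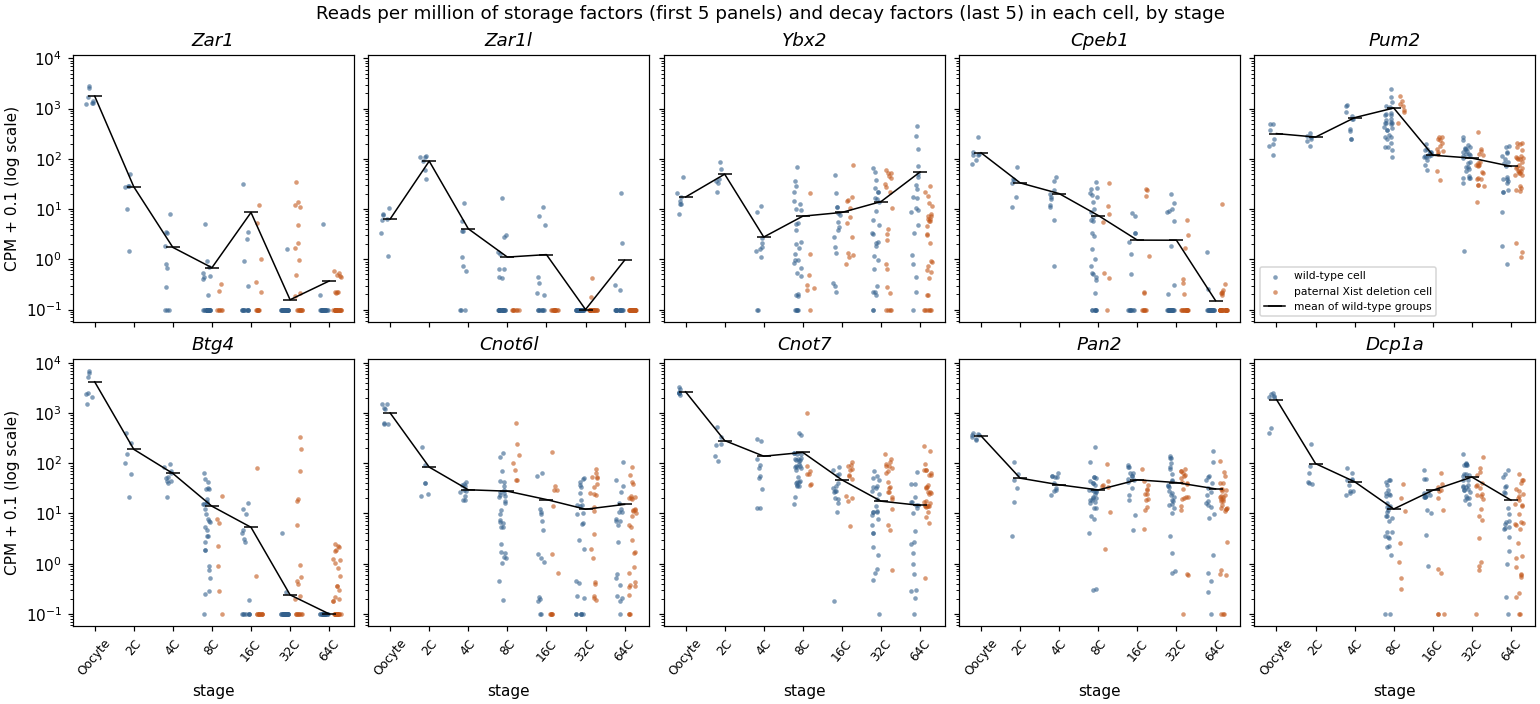
CPM of each gene in every cell (points, log axis, 0.1 added to show cells without reads) from oocyte to 64C, with the mean of the wild-type groups as a line. Zar1 and Btg4 drop from 1772 and 4175 CPM in oocytes to under 1 CPM at 64C, and Zar1l is highest at 2C; the Pum2 line is at 661 CPM at 4C and 1028 CPM at 8C, or 536 CPM at 8C without the single CB male cell.

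Zar1, the founding member of the zygote-arrest genes, was almost gone at 2C. The 4 B6 oocytes held 2855, 1313, 1226 and 1402 CPM of Zar1 and the 3 Cast oocytes 1700, 2554 and 1313 CPM. The 6 blastomeres at 2C held 29.2, 28.8, 26.8, 50.2, 1.34 and 9.86 CPM. The oocytes and the 2C cells did not overlap, and the mean over groups went from 1772 ± 109 CPM (n = 2 groups) to 27.7 ± 18.6 CPM (n = 4), 1.56% of the oocyte level. At 4C Zar1 was at 1.62 ± 1.19 CPM (n = 3). Of 26 cells at 32C, 1 had any read of it, and of 20 cells at 64C, 2 had. The mean of 8.46 CPM at 16C came from 1 CB male cell with 31.7 CPM, while the other 3 groups were at or below 2.14 CPM.

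Zar1l, the relative of Zar1, ran the other way between oocyte and 2C. The 7 oocytes held between 1.08 and 10.6 CPM of Zar1l, with a median of 6.38. The BC cells at 2C held 61.2, 40.01 and 91.4 CPM and the CB cells 108, 112.5 and 108 CPM, so each 2C cell lay above each oocyte. The group mean was 6.24 ± 2.18 CPM (n = 2) in oocytes and 90.0 ± 28 CPM (n = 4) at 2C, 1442% of the oocyte level. It was then 3.95 ± 4.66 CPM (n = 3) at 4C, and none of the 26 cells at 32C had a read. In oocytes Zar1l was therefore at least 473-fold higher than at 32C, against a floor of 3 counts over that stage. At 64C a single BC male cell carried 20.6 CPM and the other 19 cells at most 2.05 CPM.

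Ybx2, the Y-box protein gene, did not follow the others. Its oocyte level was low, 17.3 ± 8.62 CPM (n = 2 groups), and at 2C it was 49.5 ± 24.7 CPM (n = 4). The 7 oocytes held between 8.03 and 43.4 CPM and the 6 cells at 2C between 21.9 and 86.0 CPM, and these ranges overlap. Ybx2 was at 2.67 ± 1.77 CPM (n = 3) at 4C, and at 54.6 ± 47.5 CPM (n = 4) at 64C. The 20 cells at 64C ran from 0 to 440 CPM with a median of 13.5 CPM, the widest spread in CPM of the 10 genes at that stage.

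Cpeb1, the polyadenylation regulator, went from 132 ± 16.9 CPM in oocytes to 33.1 ± 15.4 (2C), 20.2 ± 3.36 (4C) and 7.34 ± 2.45 CPM (8C). At 64C it was at 0.0508 ± 0.0882 CPM, and 18 of 20 cells had no read. Pum2, the Pumilio gene, took another course: 318 ± 186 CPM in oocytes, then 271 ± 51 (2C), 661 ± 170 (4C) and 1028 ± 993 CPM (8C). The 8C groups were 455 (BC female), 738 (CB female), 416 (BC male) and 2502 CPM (CB male), the last a single cell. Without that cell the 8C mean was 536 ± 176 CPM (n = 3), below the 4C mean, and the median cell held 628 CPM at 4C and 507 CPM at 8C. From 8C to 16C Pum2 was lower in every group, at 139, 78.5, 116 and 139 CPM, and no 16C group reached the lowest 8C group. It stayed between 43 and 139 CPM in all groups of 32C and 64C.

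Btg4, the adaptor of CCR4-NOT, had the highest oocyte mean of the 10 through the Cast oocytes. In the B6 group Cnot7 was higher (2878 CPM, against 2157 CPM for Btg4), and on RPRT Zar1 was higher (2530, against 2174). The B6 oocytes held 2339, 1524, 2532 and 2123 CPM of Btg4, and the Cast oocytes 5247, 6726 and 6286 CPM. At 2C the BC cells held 155, 248 and 407 CPM and the CB cells 99.2, 61.8 and 20.8 CPM, here with the B6 mother higher. The cell at 99.2 CPM is titled CB but has BC as its strain label. Cells are not replicates of a strain, and the mother's strain is tested over groups below. Group means were 4175 ± 2854 CPM (oocyte, n = 2), 189 ± 160 (2C, n = 4), 62.5 ± 21.2 (4C, n = 3), 13.8 ± 15.7 (8C, n = 4), 5.21 ± 5.28 (16C, n = 4) and 0.139 ± 0.262 CPM (32C, n = 4). None of the 20 wild-type cells at 64C had a read of Btg4. The oocyte mean was at least 229052-fold higher than the floor of 3 counts over that stage, which covers counting error only.

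Of the deadenylase subunits, Cnot7 was the most abundant, at 2644 ± 331 CPM in oocytes. It was at 283 ± 175 CPM at 2C, 138 ± 79.997 (4C), 164 ± 163 (8C) and 14.4 ± 11.9 (64C), 0.544% of the oocyte level. Cnot6l went from 1002 ± 553 CPM in oocytes to 83.6 ± 88.0 at 2C and 15.0 ± 11.5 CPM at 64C. Cnot6l ran from 1223 to 1524 CPM in the B6 oocytes and from 598 to 627 CPM in the Cast oocytes. Pan2 went from 350 ± 23.9 CPM to 50.3 ± 40.4 CPM at 2C and then held a plateau, with stage means between 29.3 and 46.6 CPM from 4C to 64C. All 3 catalytic genes still had reads in 19 of the 20 cells at 64C.

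Dcp1a, the decapping cofactor, was at 1855 ± 723 CPM in oocytes, but not evenly. The B6 oocytes held 509, 403, 2038 and 2128 CPM of Dcp1a and the Cast oocytes 2538, 2427 and 2210 CPM, so 2 B6 oocytes were low. Stage means were 98.0 ± 93.7 CPM (2C), 42.7 ± 5.85 (4C), 12.2 ± 9.17 (8C), 28.8 ± 13.4 (16C), 53.0 ± 25.2 (32C) and 18.3 ± 7.41 CPM (64C).

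Tests of the stage changes used edgeR's quasi-likelihood test over 16622 genes with Benjamini-Hochberg adjustment, and a change was called at an adjusted p under 0.05. The test returns no standard error. The SE beside an edgeR value is the size of the log2 change over the square root of F, the test statistic. Between oocyte and 2C, 7 of the 10 genes fell and none rose, while 13.2% of all genes tested were called lower. The falls, on the log2 scale, were −7.44 (SE 1.96, adjusted p = 0.0058) for Zar1, −5.83 (SE 1.36, adjusted p = 0.00252) for Btg4 and −5.63 (SE 0.70, adjusted p = 3.01e-06) for Dcp1a. Cnot6l fell by 5.07 (adjusted p = 0.000524), Cnot7 by 4.66 (0.000295), Pan2 by 4.24 (0.00049) and Cpeb1 by 3.43 (0.0293) in the same edgeR fit. The values without a call were −1.59 for Pum2 (adjusted p = 0.0586), 0.04 for Ybx2 and 2.48 for Zar1l (SE 2.23, adjusted p = 0.417). The median of the 10 was −4.45 and that of all genes 0.04. Zar1l passed where group means of log values were tested with limma in place of sums of counts, with an adjusted p = 1.14e-05 on CPM and 0.0283 to 0.000297 on RPRT.

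The scaling between oocytes and 2C matters here. The factors of edgeR's trimmed mean of M-values (TMM) were 0.483 and 0.594 for the oocyte groups and 1.33 to 1.48 for the 2C groups. With library totals alone, a setting added after seeing the data, the median of all genes was 1.45 in place of 0.04, a shift of 1.41 on the log2 scale. Each value of the 2C comparison is thus relative to that choice. Under library totals the fall of Cpeb1 was no longer called (−1.99, adjusted p = 0.219), Pum2 was at −0.23, Ybx2 at 1.52 and Zar1l at 3.85, and the other 6 falls remained called. The fall of Cpeb1 also lost its call when any of 6 single groups was left out, with an adjusted p of up to 0.185 without the B6 oocytes.

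**Figure D2:**
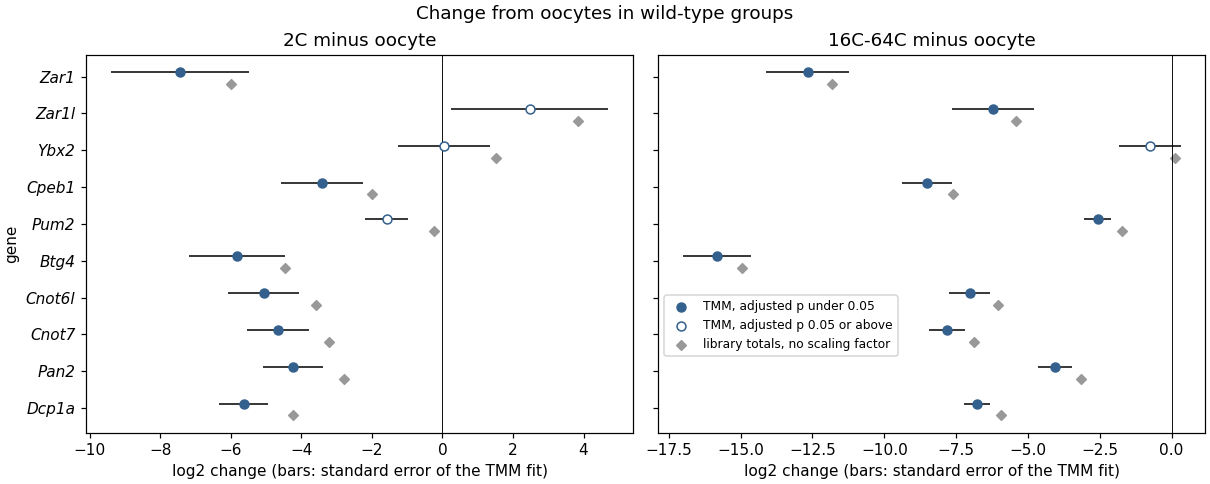
Log2 change from oocytes of each gene at 2C (left) and over 16C to 64C (right) in wild-type groups. Bars are the SE derived from the edgeR test statistic. Filled points passed an adjusted p of 0.05 and diamonds use library totals without a scaling factor. Zar1 and Btg4 lie furthest to the left, and Zar1l at 2C is the value furthest to the right.

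Few further steps were called between consecutive stages. Percentages of all genes here are for an adjusted p under 0.05 in edgeR. They are no background for the unadjusted counts or the DESeq2 calls. From 2C to 4C 0 of the 10 genes passed in edgeR, against 9.53% of all genes. In that test 2 of the 10, and 4569 of all 16622 genes, had an unadjusted p under 0.05. These 2 were Ybx2 at −3.87 (adjusted p = 0.0643) and Pum2 at 1.63 (adjusted p = 0.0669). DESeq2 called 1 of the 10 there, Ybx2. From 4C to 8C 0 passed in edgeR and 0 in DESeq2, against 0.457% of all genes. In edgeR 1 of the 10, and 2912 of all 16622 genes, had an unadjusted p under 0.05. From 8C to 16C 1 gene fell, Pum2 at −3.55 (SE 0.58, adjusted p = 0.00484), while 0.517% of all genes were called lower. That call was lost without the groups of 1 cell, where the change was −2.31 (adjusted p = 0.0829), and without the 16C CB female group (−3.42, adjusted p = 0.0583). From 16C to 32C 0 passed in edgeR, against 0.632% of all genes, with 3 at an unadjusted p under 0.05, the same number that DESeq2 called: Btg4, Zar1 and Zar1l. From 32C to 64C 0 passed in edgeR, against 0.138%, with 4 at an unadjusted p under 0.05 and 2 called by DESeq2, Cpeb1 lower and Zar1l higher; the Zar1l value rests mainly on 1 BC male cell.

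Over the whole of cleavage (mean of 16C, 32C and 64C against oocyte), 9 of the 10 genes fell and none rose, while 28.1% of all genes were called lower. The edgeR log2 changes were −15.82 for Btg4 (SE 1.19, adjusted p = 3.49e-10), −12.67 for Zar1 (SE 1.44, adjusted p = 7.93e-08) and −8.52 for Cpeb1 (SE 0.87, adjusted p = 1.44e-08). They were −7.81 for Cnot7, −7.04 for Cnot6l, −6.77 for Dcp1a, −6.23 for Zar1l, −4.05 for Pan2 and −2.57 for Pum2. The Btg4 and Zar1l values rest on stages without reads, and with those stages set at the floor they were −14.11 and −4.73. The median of the 10 was −6.90 with or without that floor, and that of all genes was 0.50. Ybx2 was the gene without a call (−0.76, adjusted p = 0.598). The Pum2 call was lost without the Cast oocytes (−1.53, adjusted p = 0.0897).

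The deposited allelic table separates RNA of the mother's allele from RNA of the father's, given as a fraction that was read as the paternal share of allelic reads. The number of reads behind it is unknown, so shares carry no interval, and a cell was used where the gene had at least 10 reads in all. Ybx2 is not in that table, and Cpeb1, Pan2 and Pum2 had shares in 8, 5 and 2 cells. Oocytes hold no paternal allele and set the background: 0.0056 for Zar1, 0.0067 for Btg4, 0.0061 for Cnot6l, 0.0047 for Cnot7 and 0.0271 for Dcp1a. The Dcp1a value came mainly from 1 B6 oocyte at 0.168, a cell that was also low in Dcp1a.

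Shares of Btg4 to 8C and of Zar1 to 4C were low. The Btg4 share was 0.0143 ± 0.0100 at 2C (6 cells, the highest at 0.0513), 0.0101 ± 0.0083 at 4C (10 cells, the highest at 0.0732) and 0.0014 ± 0.0012 at 8C (14 cells, the highest at 0.0112), and the highest oocyte stood at 0.0164. For Zar1 it was 0.0139 at 2C, with 3 of 4 cells at 0; the 1 cell with a share at 64C, a BC female at 4.96 CPM, stood at 0.556. Zar1l differed from both. Its paternal shares at 2C were 0.676, 0.541 and 0.406 in the BC cells and 0.298, 0.440 and 0.149 in the CB cells, a group mean of 0.402 ± 0.147 (n = 4 groups). All 6 cells at 2C thus held Zar1l reads of the paternal allele.

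Cnot7 had paternal reads in all 6 cells at 2C, while the few Cnot6l shares at 2C and 4C were at 0. At 2C the Cnot7 shares were 0.531, 0.161 and 0.0946 in the BC cells and 0.504, 0.507 and 0.970 in the CB cells, a mean of 0.421 ± 0.271 (n = 4). They were 0.399 ± 0.0509 (4C, n = 3), then 0.745 ± 0.162 (8C), 0.677 ± 0.129 (16C), 0.405 ± 0.0928 (32C) and 0.718 ± 0.190 (64C; n = 4 each). Single cells ran from 0 to 1 at 8C. Cnot6l was at 0 in all 3 cells with a share at 2C and in all 3 at 4C, at 0.213 ± 0.239 at 8C (n = 3) and at 0.258 ± 0.250 at 64C (n = 3). Dcp1a went from 0.105 ± 0.0803 at 2C to 0.285 ± 0.146 at 4C and 0.477 ± 0.119 at 32C.

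**Figure D3:**
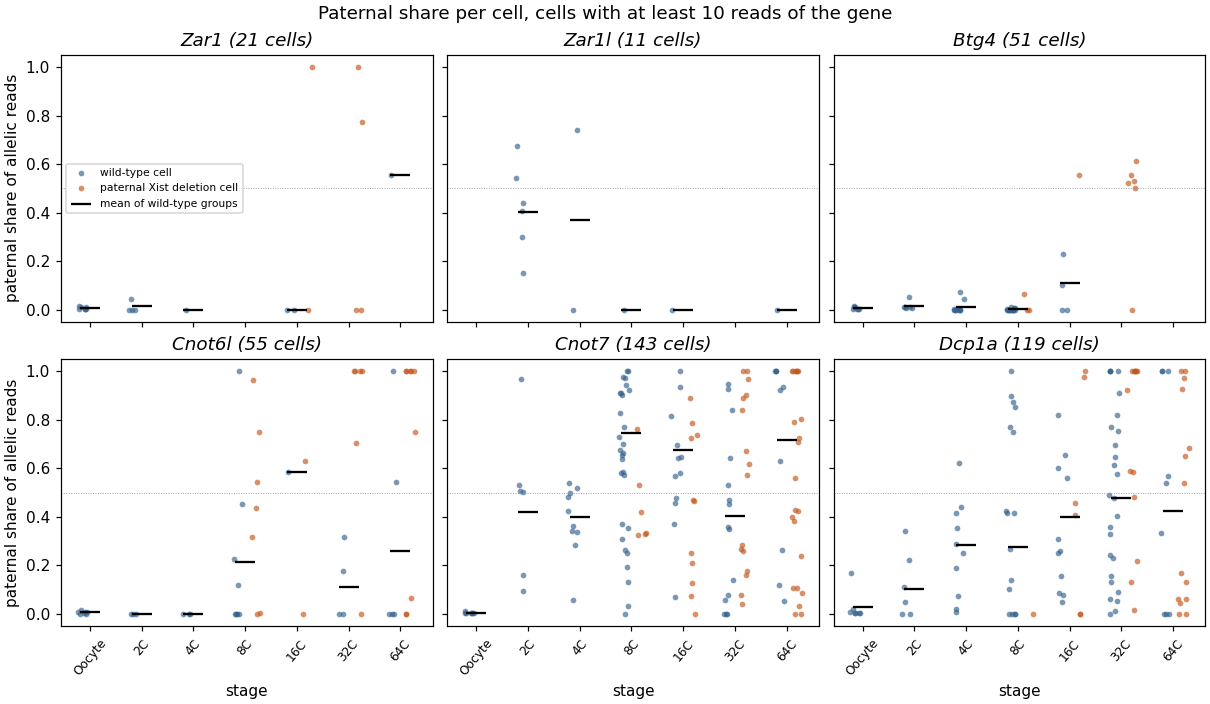
Paternal share of allelic reads (0 to 1) of 6 genes in each cell with at least 10 reads of the gene, by stage, with bars at the mean of the wild-type groups. Btg4 stays near 0 to 8C, Zar1l and Cnot7 are near 0.4 at 2C, and Dcp1a reaches 0.477 at 32C.

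The rise of a share from 2C to 16C-64C was tested with limma over 5449 genes, of which 7.93% were called higher. Of the 10 genes 3 could be tested and 0 passed: Dcp1a stood at a difference of 0.329 (SE 0.128, adjusted p = 0.115), Cnot6l stood at 0.318 (adjusted p = 0.211) and Cnot7 at 0.179 (adjusted p = 0.286). The median over all genes was 0.103, and 2 of the 3 had an unadjusted p under 0.05, as did 1270 of the 5449 genes. Between the crosses at 8C to 64C, 10.9% of 6778 genes differed, but 0 of the 2 genes tested did. Cnot7 was at −0.107 (BC minus CB, adjusted p = 0.296) and Dcp1a at 0.0964 (adjusted p = 0.748) in limma, and neither had an unadjusted p under 0.05. With the deletion, 0.0% of 6851 genes and 0 of the 2 genes differed, Cnot7 by −0.144 (adjusted p = 0.879) and Dcp1a by 0.084 (adjusted p = 0.96); 368 of all genes had an unadjusted p under 0.05.

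The strain of the mother was compared over 12 pairs of wild-type groups of the same stage and sex. Percentages of all genes for strain are edgeR calls at an adjusted p under 0.05. They are no background for the unadjusted counts or the DESeq2 calls. In edgeR 0.0303% of 16513 genes were called and 0 of the 10, with 3 at an unadjusted p under 0.05 and 1 called by DESeq2, Ybx2. Ybx2 was lower with a Cast mother by 2.03 on the log2 scale in edgeR (SE 0.70, adjusted p = 0.32), Btg4 was at −1.62 (adjusted p = 0.398) and Pum2 at 0.64 (adjusted p = 0.426). Taken apart, 0 of the 10 passed from oocyte to 4C (0.0363% of all genes; 1 at an unadjusted p under 0.05, 0 in DESeq2). From 8C to 64C 0 passed in edgeR as well (0.0182%; 6 at an unadjusted p under 0.05), and DESeq2 called 2, Ybx2 and Zar1l. The edgeR value of Ybx2 there was −3.01 (SE 0.77, adjusted p = 0.175). At 32C the Ybx2 groups were 29.2 and 24.1 CPM in BC and 1.39 and 1.16 CPM in CB, and at 64C 46.7 and 120 CPM in BC and 5.59 and 46.2 CPM in CB. At 16C the order was mixed, with 4.02 and 10.2 CPM in BC and 18 and 1.66 CPM in CB. The difference between the early and late strain effects was called for 0.0% of all genes and 0 of the 10 in edgeR, with 4 at an unadjusted p under 0.05 and 0 in DESeq2.

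For sex, over 11 pairs of stage and cross, 0.0492% of 16269 genes and 0 of the 10 were called in edgeR, and 0 of the 10 by DESeq2. In edgeR 1 of the 10, Cnot7, had an unadjusted p under 0.05 (−0.74, female minus male, adjusted p = 0.99). The percentage is for an adjusted p under 0.05 and is no background for that unadjusted count.

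Females labelled with the paternal Xist deletion were set against their wild-type counterparts of CB from 8C to 64C. In edgeR 0.0% of 14304 genes passed, with 512 at an unadjusted p under 0.05, while DESeq2 called 167 higher and 25 lower. Of the 10 genes 9 could be tested, and 0 passed in edgeR, 2 had an unadjusted p under 0.05 and 1, Btg4, was called by DESeq2 (adjusted p = 0.000206). Btg4 had no read in the 3, 9 and 6 wild-type CB female cells of 16C, 32C and 64C. In the deletion females it was at 7.84 CPM (16C), 34 CPM (32C) and 0.569 CPM (64C), with reads in 2 of 12, 12 of 16 and 17 of 25 cells. Against a floor of 3 counts over the wild-type group, which covers counting error only, this was at least 82.0-fold, 890-fold and 9.37-fold higher. The other wild-type groups of 16C were at 2.95 (BC female), 5.51 (BC male) and 12.4 CPM (CB male, 1 cell). Those of 32C were at 0.0251 (BC female), 0.532 (BC male) and 0 CPM (CB male). Most of the level in deletion females came from few cells: the 16C level from 1 cell at 79.0 CPM, and the 32C level from cells at 328, 193, 70.6, 19.1 and 17.3 CPM. The median cell at 32C held 0.403 CPM. In edgeR the fitted change of Btg4 was 8.79 (SE 3.06, adjusted p = 1) and depends on stages without wild-type reads.

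The paternal shares and other oocyte genes of those 6 deletion cells are set out next. Their Btg4 shares were 0.554, 0.5, 0.523, 0.553, 0.611 and 0.531, so reads came from both alleles in these cells. A further deletion female cell of 32C, under 10 CPM of Btg4, had a share of 0. The 2 wild-type cells with over 10 CPM of Btg4 at 16C had shares of 0 (BC female, 15.8 CPM) and 0.227 (CB male, 12.4 CPM). The same 6 cells held Zar1 at 1.54 to 34.8 CPM and Gdf9, an oocyte growth factor gene, at 29.6 to 589 CPM with paternal shares of 0.995 to 1. Their oocyte-marker sums were 45.5 to 885 CPM, and those of the 2 wild-type cells 95.7 and 145 CPM. Over all CB females these markers summed to 42 CPM in wild type and 106 CPM in deletion cells at 16C, and to 16.1 and 120 CPM at 32C. The part of these markers in the Btg4 result was not tested. Zar1, also without reads in wild-type CB females from 16C on, was at 1.80, 4.54 and 0.0964 CPM in the deletion females of 16C, 32C and 64C. Against the same floor, which covers counting error only, this was at least 18.8-fold, 119-fold and 1.59-fold higher. The other wild-type groups of 16C held Zar1 at 0.0254 (BC female), 2.14 (BC male) and 31.7 CPM (CB male, 1 cell). Zar1 reads were in 5 of 12, 9 of 16 and 9 of 25 of the deletion females, the highest at 12.1, 34.75 and 0.491 CPM. Their Zar1 shares ran from 0 to 1 at 16C (2 cells) and at 32C (3 cells). At 8C the order was the reverse, with 1.62 CPM in wild-type and 0.0462 CPM in deletion CB females.

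Cnot7 was the other gene with an unadjusted p under 0.05 (0.015), at 1.21 on the log2 scale in edgeR (SE 0.41, adjusted p = 1). Wild-type and deletion groups of CB females were at 109 and 213 CPM (8C), 16.3 and 54.8 (16C), 15.5 and 53.9 (32C), and 25.2 and 44.3 CPM (64C). The 8C level came from 1 cell at 996 CPM, and the median deletion cell of that stage, at 62 CPM, lay below the wild-type median of 121 CPM. Pum2 was at 1116 CPM in deletion females of 8C and 738 CPM in wild type (fitted change over stages 0.08). In males, who carry no paternal X, 6 of the 10 genes could be tested, and 0 passed in edgeR (0.0% of 11147 genes; 0 of the 6 at an unadjusted p under 0.05, 0 in DESeq2). Btg4 had no read in the 9 deletion males. Wild-type and deletion cells came in separate deposited tables and the labels name no batch, so genotype and collection cannot be told apart.

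**Figure D4:**
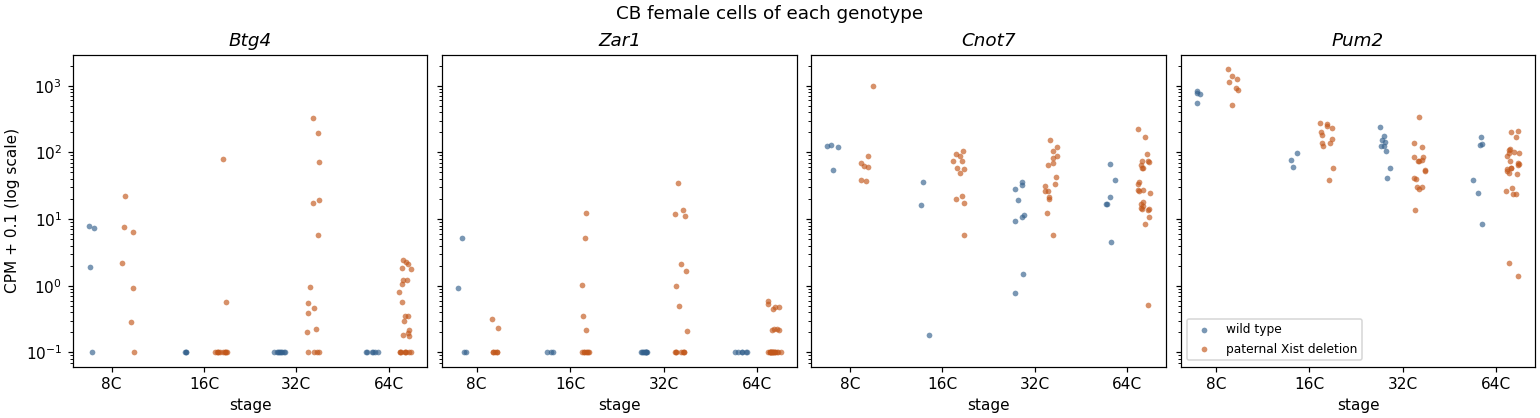
CPM (log axis, 0.1 added) of Btg4, Zar1, Cnot7 and Pum2 in each CB female cell of 8C to 64C, wild type and paternal Xist deletion. Btg4 reads are absent from the wild-type cells of 16C to 64C and reach 328 CPM in a deletion cell at 32C.

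The wider machinery of mRNA storage and decay, 89 other genes in 6 lists, did not move as one. Of the 88 tested, edgeR called 35 lower and 18 higher over the whole of cleavage (39.8% and 20.5%, against 28.1% and 20.5% of all genes), and 29 lower and 15 higher at 2C (33% and 17%, against 13.2% and 13.8%). Over cleavage, among the 15 genes listed under CCR4-NOT subunits and other deadenylases, 8 fell and 2 rose (median −1.52). Pan3, the partner of Pan2, fell by 6.21 (474 to 14.9 CPM), Angel2 by 5.94 and Noct by 5.35, while the CCR4-NOT subunit gene Cnot10 rose by 6.62 on the log2 scale (0.45 to 85.2 CPM). Of 5 BTG and TOB adaptor genes 1 fell, Tob2 by 4.07; Tob2 stood at 15.9 CPM in oocytes and 240 CPM at 2C. Of 13 decapping genes 9 fell and 1 rose (median −2.88). The granule components Lsm14b and Lsm14a fell by 8.81 and 5.14, Dcp1b, the paralog of Dcp1a, fell by 6.10, and Edc3, an enhancer of decapping, rose from 0.04 CPM, under the floor, to 30.2 CPM.

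The exosome and uridylation genes had the opposite balance, with 6 of 14 higher and 1 lower (median 2.33). Exosc5, a core subunit gene, rose from 0.05 CPM, under the floor, to 89.1 CPM, Exosc1 rose by 4.72, the nuclease gene Dis3 by 4.28, and the terminal uridylyltransferase gene Zcchc11 by 5.35. Of 20 polyadenylation and poly(A)-binding genes 8 fell and 3 rose (median −0.30). Pabpn1l, an oocyte poly(A)-binding protein gene, fell from 128 to 0.12 CPM and had no read at 32C and 64C, and Pabpc1l fell from 14.4 to 0.27 CPM with no read at 32C. With those stages at the floor of 3 counts their log2 changes were −11.51 and −7.58. Paip1 fell by 8.15 and Papd7 by 6.98. Of 21 tested genes for mRNA binding and repression 8 fell and 6 rose (median −0.20), among them Dazl at −10.29 and Eif4e1b, the gene of an oocyte form of the cap-binding protein, at −6.77. Msi2 and Nanos2 also fell, at −7.99 and −7.81 with stages of at most 3 counts set at the floor. With all such stages at the floor, the list medians were the same but for this last one, at −0.19.

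Pearson's r of log2(CPM + 1) over the 25 wild-type groups, given as a description over groups that differ in stage and depth, was 0.943 between Btg4 and Cpeb1 and 0.885 between Btg4 and Cnot7, but −0.484 between Ybx2 and Pum2. Among 12482 genes, Btg4 was most like Accsl (r = 0.984), Oog3 and Fbxw16, and Zar1 most like Zc3h6 (0.970), Oosp3 and 7420426K07Rik. Zar1l was most like AF067061 (0.945), Obox3 and LOC106029237, and Cpeb1 most like Fbxw19 (0.950), Gm13023 and Trim61. Pum2 was nearest to Taok1 (0.931), Usp1 and Cenpe, Cnot7 to Mat2b (0.941), Ireb2 and Cul1, and Cnot6l to Rhot1 (0.908), Herpud2 and Spin1. Dcp1a and Pan2 both had Ubqln1 among their nearest 3 (0.881 and 0.854), with Rubcn first for Dcp1a (0.888). The match was weakest for Ybx2, with Cic at 0.834.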

How the data were processed

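The authors deposited raw read counts per gene and cell, a normalized signal (RPRT, a name the header does not spell out), and an allelic fraction per gene and cell. RPRT is not CPM over a fixed gene length. Dcp1a was at 236 CPM and 58.4 RPRT in the 2C BC male cell, but at 48.0 CPM and 82.0 RPRT in the 16C CB male cell. Cnot6l was at 213 CPM and 29.2 RPRT, and at 55.3 CPM and 8.71 RPRT, in the same cells. Places of genes on RPRT therefore hold for that signal alone. The submitters' processing notes name TopHat2 2.1.0, SAMtools, HTSeq 0.6.1 and the build mm10; how they were set, and whether strand was used, is not given in the sources used here. Libraries were poly(A)-primed from the 3′ end and read as single ends of 50 bases, per the labels' protocols. How the authors made the deposited fraction is stated in no header; it was read as the paternal share of allelic reads because it was 0.0046 and 0.0067 for X-linked genes in BC and CB males and 0.998 for Xist in wild-type females.

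Counts of cells with the same labels were summed, since the labels name no embryo (some titles share a number and differ by a letter, with no meaning given), and p-values measure the spread between such groups, which may be technical. The main test was edgeR 4.0.16 (TMM, filterByExpr, quasi-likelihood, Benjamini-Hochberg) in R 4.3.3; limma 3.58.1 tested shares and log2 values, and DESeq2 1.42.0 was an alternative. Pseudocounts were 1 and 0.1, and the floor was 3 counts, covering counting error only because amplified reads are not independent molecules. Stage fits had no block; strain, sex and genotype fits had pairs or stages as blocks. A 2C female cell titled CB has BC as its strain label, and the title was followed. No cells of a group agreed within counting noise (lowest chi-square 16.1 per degree of freedom). On simulated data the 2C fit recovered 96% of genes changed by 5 log2 units and 9% of those changed by 2, and the deletion fit 99% and 13%. The simulation gave every gene the same dispersion and changed only genes with a high mean count. Whether these rates hold at the spread of single genes in the real data was not tested. There, the deletion fit did not call Btg4 at 8.79 (SE 3.06) or Zar1 at 6.92 (SE 4.03). The 2C fit did call Zar1 at −7.44 (SE 1.96).

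The 10 genes, the lists and the naming rule were chosen with earlier results of these data known. All 10 genes are named; of each list up to 4 genes with the largest called change over cleavage; and for each of the 10, the 3 genes with the highest r among those reaching 10 CPM in some group. Overlapping and antisense reads cannot be separated without strand.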

Additional observations from a re-analysis of the deposited data

Results flagged for a closer look

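In 12 of 48 sets of 4 wild-type groups (a gene at a stage), 1 group stood apart from the other 3 by Dixon's test. For normally distributed values chance gives about 1 in 20. Several of these sets lie near 0 CPM, where that rate need not hold. Of the 12, 4 rest on a group of 1 cell, and several others on few cells of a larger group. These are Zar1 at 16C (CB male, 31.7 CPM, next group 2.14), Cnot6l at 16C (the same cell, 55.3 CPM, next 11.9), Cnot7 at 8C (CB male, 406 CPM, next 109) and Pum2 at 8C (the same 8C cell, 2502 CPM, next 738). Cnot6l at 8C was highest in CB females (72.6 CPM, next 15.9). BC males were highest for Zar1l at 8C (3.60 CPM, next 0.316) and at 64C (3.41 CPM, mainly from 1 cell at 20.6, next 0.0203). They were also highest for Cpeb1 at 8C (11 CPM, next 6.27) and Btg4 at 32C (0.532 CPM, no read in 5 of 6 cells, next 0.0251). The remaining 3 include Zar1 in BC females at 32C (0.226 CPM, no read in 4 of 5 cells, next 0) and at 64C (1.02 CPM, from 1 cell at 4.96, next 0.0572). The last is Cpeb1 in CB females at 64C (0.182 CPM, no read in 5 of 6 cells, next 0.0209).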

How the results depend on the processing

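The counts of genes called between oocyte and 2C (7) and over cleavage (9) stayed within 1.5 times under the alternatives run, and leaving out single groups gave 6 to 8 and 8 to 9. The counts for consecutive later stages moved. The share of all genes called under each alternative is not given here, so these counts have no background beside them. From 2C to 4C (0) there was 1 with DESeq2, without the groups of 1 cell, with the mother's strain as covariate and with strain and sex, 3 with limma on cell means, and 4 with limma on RPRT at either pseudocount; leave-one-out gave 0 to 1. From 4C to 8C (0) limma on cell means gave 2, and leave-one-out 0 to 0. From 8C to 16C (1) DESeq2 gave 2, the fit without groups of 1 cell 0, and leave-one-out 0 to 2. From 16C to 32C (0) DESeq2 gave 3, and no filter, strain, and strain and sex as covariates gave 1 each; from 32C to 64C (0) DESeq2 gave 2 and no filter 1; leave-one-out gave 0 to 1 in both. DESeq2 called 1 gene by strain, 2 by late strain and 1 in deletion females, against 0; leave-one-out stayed at 0 for strain, sex, deletion and shares. The fall of Zar1 and Btg4 kept its call in every leave-one-out fit. Among single genes, 5 values changed sign: Ybx2 at 2C (0.04) was −0.40 with DESeq2 or its size factors and −0.001 without groups of 1 cell (leave-one-out −0.30 to 1.01), Ybx2 over cleavage (−0.76) was 0.107 with library totals (−1.02 to 0.53), and Zar1 from 8C to 16C (3.57, resting on the 1-cell 16C CB male group) was −0.003 without groups of 1 cell (−0.12 to 5.72). The Dcp1a share ran from −0.03 to 0.191 between crosses and from −0.061 to 0.228 with the deletion. Library totals and the fits without groups of 1 cell were chosen after seeing the data. The causes were not tested. For single genes, 491 alternatives left the status (called or not called) the same, 29 gained a call and 6 lost one. The 5 changes of sign are counted apart from these. No paired analysis was possible because sums over cells carry no replicate number; the strain, sex and deletion fits were blocked by stage, cross or sex instead. Leaving out a stage for deletion males was not run, since no residual degrees of freedom are left. Oocytes have the lowest median depth (3433080.0 reads), which limits what low genes can show there.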
